A study of Homo sapiens with 12 samples.

Results

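The 7SL RNA family of the human genome was examined in 293T cells that carried a doxycycline-inducible 4EBP1-4A, a form of the translation repressor 4EBP1 that mTOR and PI3K cannot phosphorylate. Members were chosen by symbol, beginning with RN7SL, and by their read counts, at least 60 RNA-seq reads summed over 6 libraries, which left 307 of the 680 RN7SL genes in the count table (45.1%). The same rule pointed to RN7SL494P and RN7SL15P as copies that were lower with doxycycline and to RN7SL583P as a copy that was higher, so for these 3 copies the contrast is given as a description, and they are left out of the counts of tests. At the edge of the rule, RN7SL167P, RN7SL263P and RN7SL68P held 60 reads each and were members, and RN7SL797P held 59 and was not.

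7SL RNA is the RNA scaffold of the signal recognition particle, which binds signal peptides as they leave the ribosome and docks the ribosome at the endoplasmic reticulum. RNA polymerase III transcribes it, and its ends form the Alu domain, which slows elongation, while its middle forms the S domain, which holds SRP54 and the signal peptide. The genome holds a few functional genes and a large number of dispersed pseudogene copies, and the Alu repeats descend from the same RNA.

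293T is an embryonic kidney cell line, and the transduced cells had been sorted on GFP. One group received DMSO and the other doxycycline at 2 mg/mL for 12 h by the labels, while the results text of the study gives another time, and both groups received cycloheximide for 10 min before lysis. Total RNA and ribosome-protected fragments were sequenced from 3 samples of each group, which gives 12 libraries. The study calls the samples of a group biological replicates, while the labels do not say whether they were separate cultures, and p-values measure only the spread between these samples.

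Reads on genes numbered 45887231 to 57824136 per RNA-seq library, apart from DOX replicate 3 with 21687906. That library also held 14.9 reads with more than 1 alignment for each read on a gene, against 1.78 to 3.54 in the other 5, and results are therefore given with and without it. EIF4EBP1, the gene of 4EBP1, was higher in the doxycycline libraries, at 270 against 161 CPM (reads per 1e6 reads on genes after scaling with TMM factors; log2 fold change 0.75, SE 0.10, n = 3 per group). All 7 markers of the embryonic kidney line were measured, of 4 skin markers KRT5 and KRT14 had 0 reads, KRT1 had 2 and KRT10 had 56 to 313 per library (5.40 ± 0.32 CPM with DMSO and 3.68 ± 1.38 CPM with doxycycline), and the summed level of the blood markers HBB and PTPRC stayed between 0 and 0.106 CPM.

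The first stretch shown is one that RN7SL1, RN7SL2 and RN7SL3 share, so a read within it cannot be placed among them. The sequences below are from hg38, 5′ to 3′ on the strand of each copy, with bases that differ from RN7SL2 in capitals. Bases 1 to 30 of RN7SL2, in the Alu domain, were followed in RN7SL1 and RN7SL3 without a difference, and RN7SL583P lacks 13 of these bases.
RN7SL2, chr14:49862820-49862849 (-): gccgggcgcggtggcgcgtgcctgtagtcc
RN7SL4P, chr3:15738515-15738544 (+): gccgggcAcAgtggcgcgtgcctgtagtcc
RN7SL15P, chrX:41345847-41345876 (-): gcTgggTgcAgtggTgAgtgcctgtagtcc
RN7SL494P, chr15:50244902-50244931 (-): gcTgggcAcAgGggcAcgtgTctgtagtcc
RN7SL583P, chr1:88478098-88478114 (-): gccAgcAAgtgcagCcc

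Bases 111 to 140, in the S domain, are shown because here the pseudogene RN7SL494P has the letters of RN7SL2 while RN7SL15P and RN7SL583P differ.
RN7SL2, chr14:49862710-49862739 (-): ccgcactaagttcggcatcaatatggtgac
RN7SL3, chr14:49853775-49853804 (-): ccgcactGagttcggcatcaatatggtgac
RN7SL15P, chrX:41345737-41345766 (-): ccAcactaagttTggcatcaaCatggtAac
RN7SL494P, chr15:50244778-50244807 (-): ccgcactaagttcggcatcaatatggtgac
RN7SL583P, chr1:88477988-88478017 (-): ccgcactaagttTgAcatcaatatggtgac

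Counted from 1 at the first base of RN7SL2, RN7SL1 differs by T52C, G53T, C69T and A275G and lacks base 300. RN7SL3 has T52C, G53T, C69T and A275G as well and also lacks base 300. It further has G62C, C70T, A118G, C242T, C285T, C293T and T295C, and is 96.0% identical to RN7SL2. The pseudogenes are more distant, at 86.7% identity for RN7SL4P, 84.8% for RN7SL15P, 80.7% for RN7SL583P and 75.0% for RN7SL494P. The median over the 307 members was 81.5%, and RN7SL832P, which is annotated over 1756 bases, had the lowest value at 15.0%.

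The deposited counts hold uniquely aligned reads, so a copy can only be counted where its sequence occurs once in the genome. The read length is not given in the sources used here, and windows of 30, 50 and 100 bases were therefore compared with both strands of the genome. Of the 50-base windows of RN7SL2, 13.1% occurred once, against 15.6% for RN7SL1, 62.0% for RN7SL3 and 41.9% for RN7SL4P. All 50-base windows of RN7SL494P, RN7SL15P and RN7SL583P occurred once.

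For windows of 30 bases, the unique share fell to 0 of 270 for RN7SL1 and 4.06% for RN7SL2. At the same length it was 82.2% for RN7SL494P, 87.9% for RN7SL15P and 94.2% for RN7SL583P. Among members, 232 (75.6%) had every 50-base window unique, as had 202 of the other 373 copies (54.2%). Unique reads can therefore come from only a small part of RN7SL2, and from nearly all of RN7SL494P, RN7SL15P and RN7SL583P.

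RN7SL2 (ENSG00000274012, chr14:49862550-49862849 on the minus strand), one of the functional 7SL genes, held 2183955 of the 2427133 reads on members (90.0%). It lies wholly within an exon of the long noncoding RNA gene ENSG00000282885 on the same strand, which held 211 reads. RN7SL3 (ENSG00000278771, chr14:49853616-49853914, minus strand) held 103532 reads (4.27%) and RN7SL4P (ENSG00000263740, chr3:15738515-15738809, plus strand) held 24500 (1.01%). The other 304 members shared 4.74% of the reads, and 280 of the 307 members held fewer than 1000 reads and 171 fewer than 200.

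RN7SL1, the other long-known functional gene, lies at chr14:49586580-49586878 on the plus strand, within the span of RPS29 on the minus strand. It had 0 reads in all 12 libraries, which allows up to 3 reads per library, or 0.0549 to 0.118 CPM in the RNA-seq libraries, as a counting limit. RN7SL2 and RN7SL1 differ at few bases, so reads shared by both copies cannot be told apart, and the value of RN7SL2 is the level of what aligned to that locus alone. Whether the overlap with RPS29 played a part in the count of 0 was not tested.

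Level per length gave nearly the order of the reads. RN7SL2 had 25737 CPM per kb over the 6 libraries, RN7SL3 1259, RN7SL4P 299, and the next copy, RN7SL8P, 64.4. RN7SL767P followed with 59.1 CPM per kb and RN7SL128P with 49.6. RN7SL15P had 24.1 CPM per kb, while RN7SL494P had 4.99 and RN7SL583P had 1.15, so the 3 copies of the rule lie far apart in level.

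**Figure D1:**
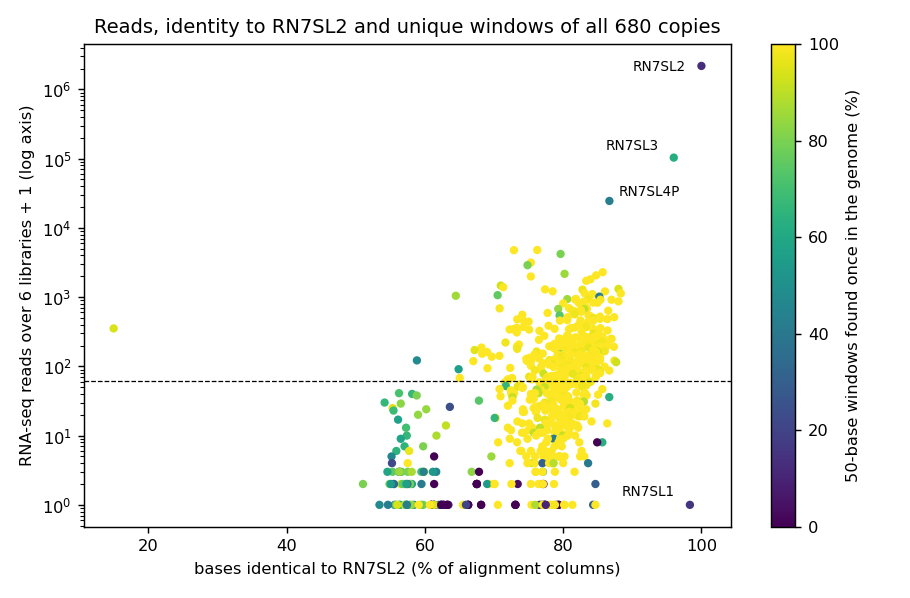
Each point is 1 of the 680 RN7SL copies, with its bases identical to RN7SL2 (percent of alignment columns) on the x axis, its RNA-seq reads over 6 libraries plus 1 on a log y axis, and the share of its 50-base windows found once in the genome as colour; the dashed line marks 60 reads. RN7SL2 and RN7SL3 stand above all others, RN7SL1 lies at 0 reads although close to RN7SL2.

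Identity to RN7SL2 and reads had a Spearman rho of 0.54 over all 680 copies and of 0.19 over the 307 members, as a description of points that share the same libraries and the same need for unique sequence. The letters TGACGT, the core of a cAMP response element, occurred on either strand in the 100 bases before the start of 6 of the 680 copies (0.882%). These were RN7SL1, RN7SL2, RN7SL283P, RN7SL454P, RN7SL614P and RN7SL767P, of which RN7SL2 and RN7SL767P were members. The same letters occurred before 1622 of 58207 annotated gene starts (2.79%).

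With doxycycline, the summed level of the members was 7738 ± 1413 CPM against 9466 ± 1053 CPM with DMSO (SD, n = 3), where the level is in TMM-scaled CPM. The log2 ratio of the means was -0.29, and -0.15 without DOX replicate 3. RN7SL2 dominated this sum, since the ratio was -0.04 for the other members together and -0.11 once RN7SL3 and RN7SL4P were also left out. In bulk RNA, fewer cells with an RNA and less of that RNA per cell cannot be told apart.

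RN7SL2 had 9314, 7442 and 8962 CPM in the DMSO libraries and 7429, 7869 and 5312 CPM in the doxycycline libraries. The groups overlapped, and DOX replicate 3 was the lowest library. The fitted log2 fold change was -0.32 (SE 0.17), and -0.17 (SE 0.08) without that library. RN7SL2 made up 86.5% of member reads in DOX replicate 3 and 89.2% to 90.8% in the other 5 libraries.

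RN7SL3 had 382, 345 and 386 CPM with DMSO and 353, 434 and 358 CPM with doxycycline. RN7SL4P, which lies on the opposite strand to ANKRD28, had 96.8, 85.9 and 88.9 CPM with DMSO and 85.0, 94.7 and 78.8 CPM with doxycycline. Both copies had overlapping groups, with log2 fold changes of 0.04 (SE 0.12) and -0.07 (SE 0.11). Without DOX replicate 3 these values were 0.08 and -0.01.

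The other copies among the 10 with the most reads were likewise close to 0, and all had overlapping groups. RN7SL767P had a log2 fold change of 0.13, RN7SL8P -0.14, RN7SL128P -0.09, RN7SL838P 0.01, RN7SL151P below 0.01 in size and RN7SL674P 0.05. RN7SL507P was the exception, with 9.26 ± 1.41 CPM with DMSO and 6.81 ± 1.75 CPM with doxycycline and a log2 fold change of -0.43 (SE 0.21). Its value was -0.25 (SE 0.12) without DOX replicate 3.

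RN7SL494P (ENSG00000241175, chr15:50244628-50244931, minus strand) lies in the span of HDC, the histidine decarboxylase gene, on the same strand. Its counts were 125, 98 and 116 reads with DMSO and 45, 40 and 19 with doxycycline, which corresponds to 2.29, 1.87 and 2.38 CPM against 0.958, 0.864 and 0.749 CPM. All 3 doxycycline libraries were below all 3 DMSO libraries. The group means were 2.18 ± 0.27 and 0.857 ± 0.104 CPM (SD, n = 3), with a log2 fold change of -1.33 (SE 0.18), a level 60.1% lower. HDC itself held 7 reads over the 6 libraries and did not pass the filter.

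RN7SL15P (ENSG00000264573, chrX:41345576-41345876, minus strand) lies on the opposite strand within DDX3X, an RNA helicase gene. It had 10.1, 8.82 and 9.14 CPM with DMSO and 5.28, 4.84 and 5.32 CPM with doxycycline, from 549, 463 and 445 against 248, 224 and 135 reads. The groups did not overlap and the spread within each was small, with means of 9.34 ± 0.64 and 5.15 ± 0.27 CPM. The log2 fold change was -0.86 (SE 0.12), a level 44.9% lower. DDX3X moved less, with a log2 fold change of -0.43 (SE 0.20) and of -0.23 (SE 0.07) without DOX replicate 3.

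RN7SL583P (ENSG00000239504, chr1:88477828-88478114, minus strand) lies within PKN2-AS1, an antisense RNA gene, on the same strand. Its counts were 11, 11 and 6 reads with DMSO and 22, 20 and 14 with doxycycline. In CPM these were 0.201, 0.209 and 0.123 against 0.468, 0.432 and 0.552, so that all doxycycline libraries were above all DMSO libraries. The log2 fold change was 1.40 (SE 0.29), or 2.63 times the DMSO level. PKN2-AS1 had a log2 fold change of -0.11 (SE 0.34).

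**Figure D2:**
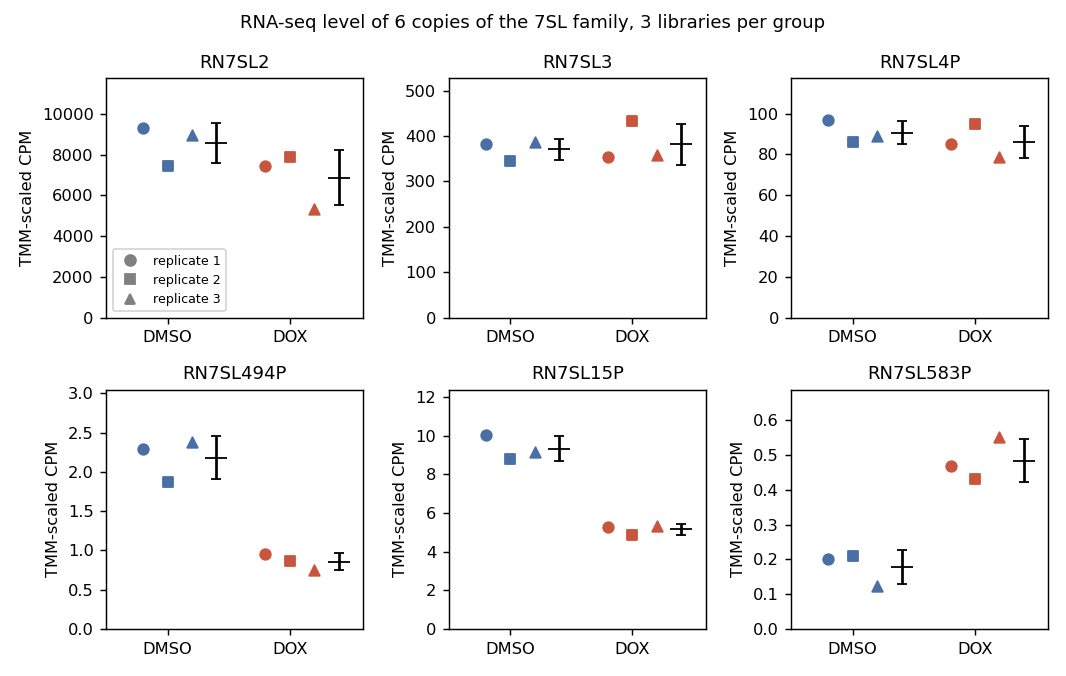
Level in TMM-scaled CPM (y axes, from 0) of 6 copies in the 3 DMSO and 3 doxycycline (DOX) RNA-seq libraries, with the replicate number as marker and the mean ± SD as a bar beside the points. RN7SL494P and RN7SL15P are lower and RN7SL583P is higher in every DOX library, while the groups of RN7SL2, RN7SL3 and RN7SL4P overlap.

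The rule had picked these 3 copies for their direction in this contrast, and their groups did not overlap. Leaving out 1 library could therefore hardly reverse the direction, and the values that follow only describe the size. Without DOX replicate 3, the log2 fold change was -1.26 (SE 0.19) for RN7SL494P, -0.89 (SE 0.11) for RN7SL15P and 1.31 (SE 0.36) for RN7SL583P. Leaving out any 1 of the 6 libraries in turn gave -1.43 to -1.25 for RN7SL494P, -0.90 to -0.80 for RN7SL15P and 1.22 to 1.52 for RN7SL583P. With spike-in scaling the values were -1.002 (SE 0.45), -0.44 (SE 0.40) and 1.82 (SE 0.53). The value of RN7SL15P was thus close to its SE in size with that scaling.

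The lowest fold change of the family belonged to RN7SL271P (chr3:71827177-71827471, plus strand), with 23, 23 and 29 reads with DMSO and 1, 6 and 6 with doxycycline. RN7SL271P passed the filter of 10 reads in 3 libraries only through the DMSO group, where it was high. Its fold change is therefore a description, and the fits without a DMSO library gave no value for it. Its log2 fold change was -2.08 (SE 0.53), and -2.65 (SE 0.50) without DOX replicate 3 but -1.48 without DOX replicate 1. RN7SL169P (chr5:64539504-64539792, plus strand), which lies in RGS7BP on the same strand, had 5.95, 4.68 and 1.79 CPM with DMSO and 1.171, 1.101 and 1.814 CPM with doxycycline. Its groups overlapped because DMSO replicate 3 was as low as DOX replicate 3, and its log2 fold change was -1.65 (SE 0.44), with -1.28 without DMSO replicate 1 and -1.98 without DMSO replicate 3.

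RN7SL687P (chrX:153666226-153666510) and RN7SL822P (chr4:55215624-55215919) had log2 fold changes of -1.31 (SE 0.35) and -1.30 (SE 0.38), and neither had overlapping groups. At the other end, RN7SL471P had 1.44 (SE 0.49), RN7SL328P 1.26 (SE 0.30), RN7SL284P 1.15 (SE 0.32) and RN7SL517P 1.13 (SE 0.50). These 4 copies held only 68 to 73 reads each over the 6 libraries, while RN7SL687P held 238 and RN7SL822P 213. Without DOX replicate 3, RN7SL328P did not pass the filter and the other 3 high copies had 1.29, 1.10 and 1.02. RN7SL517P rested on single DMSO libraries, with 1.95 without DMSO replicate 2 and 0.76 without DMSO replicate 1.

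**Figure D3:**
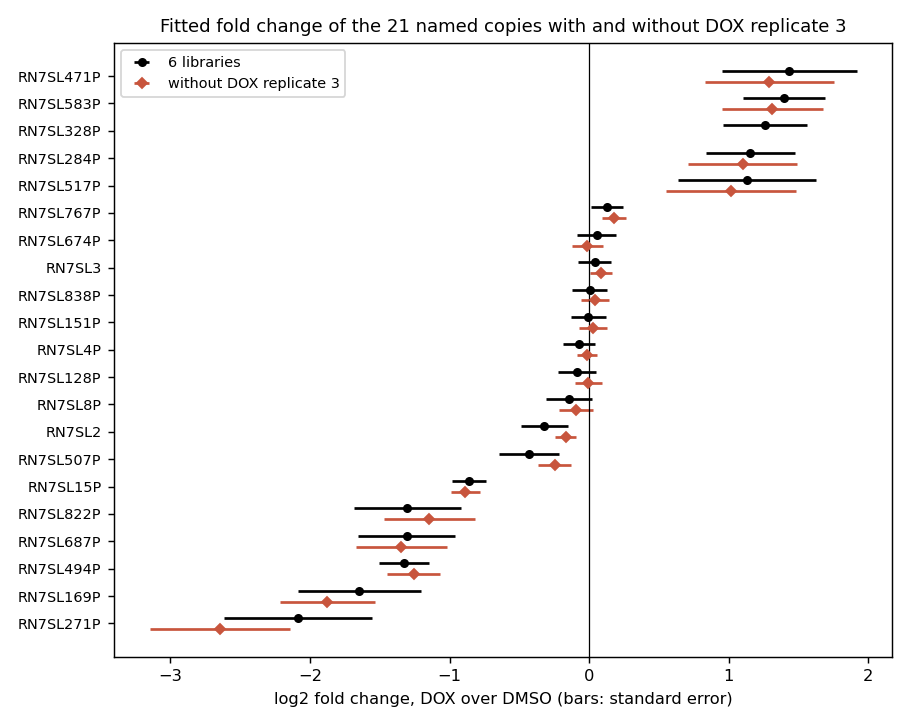
Fitted log2 fold change of doxycycline (DOX) over DMSO on the x axis for 21 named copies on the y axis, with all 6 libraries (black) and without DOX replicate 3 (red), bars being the standard error; RN7SL328P has no value without that library. The copies at either end were chosen by the fit of 6 libraries, and the second fit reuses these libraries. That those with both values lie on the same side of 0 in both fits is therefore no separate support. RN7SL2 moves from -0.32 to -0.17.

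Across the family the fold changes were centred near 0. All 307 members were tested, 180 had a log2 fold change below 0 and 127 above, and the median was -0.08 against -0.04 over all 20552 genes. This balance turned with the scaling, since 132 were below 0 and 175 above with library totals, where the median over all genes was 0.10, and 63 and 244 with spike-in totals, where it was 0.34. Between -0.5 and 0.5 lay 248 members (80.8%), against 82.8% of all genes. At -1 or lower lay 7 members (2.28%), where the background over all genes was 0.501%, and at 1 or higher lay 6 members (1.95%), where it was 0.983%. The 7 include RN7SL494P and the 6 include RN7SL583P, both picked by the rule from this contrast. Of the 307 members, 171 held fewer than 200 reads, so nothing is read from these 2 excesses.

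All doxycycline libraries were below all DMSO libraries in 33 members (10.7%, background 20.8%) and above them in 18 (5.86%, background 17.7%). Since the rule used this contrast, nothing is read from these shares.

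**Figure D4:**
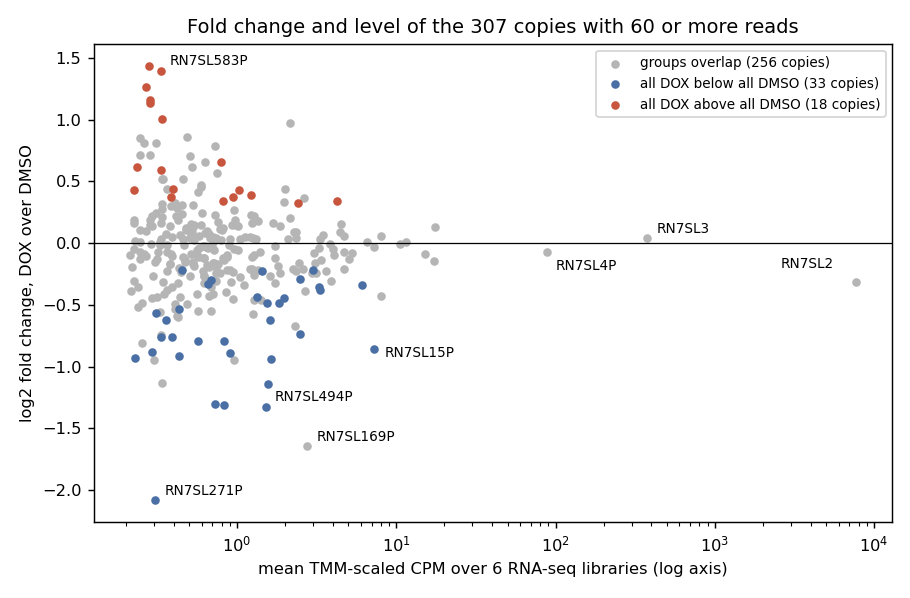
Mean level over the 6 libraries in TMM-scaled CPM on a log x axis and log2 fold change of doxycycline (DOX) over DMSO on the y axis for the 307 members, coloured by whether all DOX libraries lie below (33 copies, blue) or above (18 copies, red) all DMSO libraries or the groups overlap (256 copies, grey). The copies that moved furthest are at low levels, and the copies with the highest levels lie near 0.

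With the quasi-likelihood F-test of edgeR over 6 libraries, no member passed an adjusted p of 0.05 in either direction, and neither did any of the 20552 genes (background 0.0% lower and 0.0% higher). Leaving out the 3 copies of the rule, 22 of 304 members were lower at an unadjusted p under 0.05 (background 4.13%) and 7 were higher (background 9.58%). The Wald test of DESeq2 on the same libraries called 0 of these 304 in either direction (background 0.00973% lower and 0.00487% higher). At an unadjusted p under 0.05 that test gave 14 of the 304 lower (4.61%) and 8 higher (2.63%). Of all 20552 genes, 1323 were lower and 2478 higher at the same threshold. The 2 genes behind the background of 0.00973% were RN7SL494P and RN7SL15P themselves, which the rule had picked from these values, so nothing is read from it. With spike-in scaling, edgeR called 1 member higher, RN7SL471P (background 0.954%), and 0 lower (background 0.0%).

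Without DOX replicate 3 and again leaving out the 3 copies of the rule, edgeR called 8 of 303 members lower (2.64%, background 4.03%) and 0 higher (background 3.4%). At an unadjusted p under 0.05, edgeR gave 27 of the 303 lower (8.91%) and 12 higher (3.96%). Of all 20459 genes in that fit, 2843 were lower and 2431 higher at the same threshold. The 8 called members were RN7SL122P, RN7SL169P, RN7SL271P, RN7SL329P, RN7SL394P, RN7SL587P, RN7SL687P and RN7SL822P. Among them RN7SL271P passed the filter only through the DMSO group, where it was high, so nothing is read from its call. In all 8 every 50-base window occurred once in the genome, as it did in 232 of all 307 members (75.6%), so nothing is read from this. RN7SL122P, RN7SL329P, RN7SL394P and RN7SL587P are named here after their values were seen.

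Copies often lie within other genes, and the sources used here do not say whether the counting used strand, so a read of a host transcript could be counted on a copy. Of the 217 copies in a tested host on the same strand, 134 were members (61.8%), against 39 of 107 in a tested host on the other strand (36.4%) and 134 of 356 in no tested host (37.6%). The median log2 fold change of the members was 0.04, -0.21 and -0.13 in these 3 classes. The fold change of a copy and that of its host had a Spearman rho of 0.04 on the same strand (n = 134) and -0.03 on the other strand (n = 39), over points that share the same 6 libraries.

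Some copies lie wholly in annotated exons of another gene. Of the 13 that do so on the same strand, 8 held 0 reads, while the 4 on the other strand held 4 to 1986 reads. Whether reads on overlapping exons were left uncounted was not tested. Near-identical copies, among them RN7SL1, RN7SL2 and RN7SL3, remain uncertain in any count of unique alignments.

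The protein partners of 7SL RNA were read from the same libraries. Of 8 genes for SRP proteins and the SRP receptor, none passed the edgeR test over 6 libraries, 7 had a log2 fold change below 0, and the median was -0.25. SRP9, which binds the Alu domain with SRP14, had 159, 132 and 148 CPM with DMSO and 123, 98.2 and 34.3 CPM with doxycycline. DOX replicate 3 was the lowest by far, and without it the edgeR fold change of SRP9 was -0.41 (SE 0.09, adjusted p = 0.0163), the only one of the 8 called, where 4.03% of all genes were called lower. SRP14 had -0.26 (SE 0.14), SRP54 -0.48 (SE 0.26) and SRP68, an S domain protein, 0.08 (SE 0.12) over 6 libraries.

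Of 6 genes of the translocon, the channel to which the particle delivers ribosomes, none passed the test over 6 libraries, and 2 were called lower without DOX replicate 3, where 4.03% of all genes were. These were the small subunits SEC61B (log2 fold change -0.45, SE 0.09, edgeR adjusted p = 0.0122) and SEC61G (-0.48, SE 0.10, edgeR adjusted p = 0.0146). SEC61A1, the channel subunit, had -0.10 (SE 0.08).

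Of 22 genes of RNA polymerase III and its factors, none passed over 6 libraries and 11 had a fold change below 0, with a median of -0.03. Without DOX replicate 3 only POLR3G, a subunit of the polymerase, was called, 1 of 22 beside 4.03% of all genes called lower (log2 fold change -0.33, SE 0.10, edgeR adjusted p = 0.044). MAF1, the repressor of the polymerase, had 0.11 (SE 0.11) over 6 libraries, and the La protein gene SSB had -0.37 (SE 0.22).

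At an unadjusted p under 0.05 over 6 libraries, edgeR gave 0 genes of the SRP list, 1 lower of the translocon list, and 1 lower and 3 higher of the RNA polymerase III list, beside 4.13% lower and 9.58% higher of all genes, and the Wald test of DESeq2 called 0 genes of these lists.

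Other RNA polymerase III transcripts gave little to set beside 7SL RNA. Of 12 in the table, 5 were tested and none was called, and RN7SK, RMRP, RPPH1 and VTRNA2-1 had 0 reads in the RNA-seq libraries. RNY1, a Y RNA, was the highest at 80.5 CPM per kb, with 9.30 ± 1.21 CPM with DMSO and 8.90 ± 1.16 CPM with doxycycline.

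In the Ribo-seq libraries the family was nearly absent. The members held 36 reads in all, 0, 3 and 7 in the DMSO libraries and 6, 12 and 8 in the doxycycline libraries. All 680 copies held 5, 17 and 33 reads with DMSO and 8, 16 and 16 with doxycycline. Reads on genes ranged from 210186 to 1002424 per Ribo-seq library, and no direction is read from such small counts. Of the 307 members, 19 held at least 1 read and none more than 5, so none passed the filter of 10 reads, and the edgeR background was 0 of 1607 genes (0.0%). RN7SL2 and RN7SL3 had 0 reads in all 6 Ribo-seq libraries. The Ribo-seq reads had been filtered against ribosomal RNA, and a change of the family in this assay was not detectable at this depth.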

How the data were processed

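Counts per gene were made by the authors and deposited as raw whole numbers. Per the study's methods, reads were aligned with STAR to GRCh38, and uniquely aligned reads on exons were used. The labels name GRCh37 and Ensembl 75. Of 58735 gene identifiers, 58207 matched GENCODE release 44 on GRCh38 (hg38), which gave coordinates, symbols and sequences. Whether strand was used is not given in the sources used here. Rows of no gene held 69.1% to 94.1% of RNA-seq rows' reads and, like spike-ins and viral rows, stayed out of library sizes and tests. A deposited table of the authors' RiboDiff results (dispersion score, p-value and q-value, translation efficiency ratio in each condition and its log2 change) was used only for symbols. No column was of unknown sample, and no pair of libraries held the same counts.

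Both assays were fitted over all genes with edgeR 4.0.16 (limma 3.58.1, R 4.3.3), TMM factors, glmQLFit and glmQLFTest, and Benjamini-Hochberg adjustment at 0.05. The filter was 10 reads in 3 libraries for RNA-seq and 10 reads in all for Ribo-seq. Alternatives were DESeq2 1.42.0, other scalings, no filter, a replicate block and each library left out. The fit was tried on simulated counts. Copies were aligned globally to RN7SL2 with Biopython 1.88 (match 1, mismatch -1, gap open -2, gap extension -0.5), and identity is the share of alignment columns. Windows were searched with Python 3.11.15, numpy 2.4.6 and pandas 2.3.3 against hg38 without alternate loci. Figures used matplotlib 3.10.9.

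Named copies were the 3 of the rule, RN7SL1 to RN7SL3, the 10 with most reads, and the 5 highest and 5 lowest fold changes. Members, lists and tests were chosen with earlier results of these data known. Samples with the same number were not treated as pairs in the main fit, and whether they shared a culture or batch is not known. Counting limits of 3 reads cover counting error only, and p-values measure the spread between these samples.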

Additional observations from a re-analysis of the deposited data

How the results depend on the processing

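The count of 7SL copies called in the RNA-seq fit over all genes was 0 over 6 libraries and also with DESeq2 size factors, library totals, no filter on low counts and TMM factors over tested genes only. It was 2 with the Wald test of DESeq2, both of them copies the rule had picked from these values, and 1 with spike-in scaling (RN7SL471P, higher), where 0.954% of all genes were called higher. It was 0 to 11 when each library was left out in turn, where 11 came from leaving out DOX replicate 3, 3 of them copies of the rule, with 825 lower and 696 higher calls over all genes, and 0 from each of the other 5. The replicate block gave 0 calls and a median log2 fold change of -0.09 over members. Same-numbered samples correlated in their deviations by 0.23, -0.17 and 0.02, with no common sign. Deviations from means of 3 samples cannot exclude a culture or batch shared by number. The block changed no call. In Ribo-seq the count was 0 throughout, with no copy past the filter. The log2 ratio of the summed CPM was -0.29, -0.0417 without RN7SL2, 0.0688 with spike-in scaling and -0.40 to -0.15 when each library was left out. Scaling moved all genes together: the median over all tested genes was -0.04 with TMM factors, 0.10 with library totals and 0.34 with spike-ins, and that over members was -0.08, 0.05 and 0.28. With library totals 175 of 307 copies had a fold change above 0, with spike-ins 244, and with TMM factors 127. RN7SL2 went from -0.32 to 0.03 with spike-ins, and 16 of the 21 named copies kept their sign there. Over all alternatives RN7SL494P stayed between -1.43 and -1.002, RN7SL15P between -0.90 and -0.44 and RN7SL583P between 1.22 and 1.82. Spike-in scaling and TMM factors over tested genes only were chosen after seeing the data. Depth limits copies with few reads, and unique alignment limits RN7SL1, RN7SL2 and RN7SL3.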

Other observations

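A pair of copies stood out by 1 library of the DMSO group, and one of them is named here after its values were seen. RN7SL402P (chr19:35881890-35882153, plus strand) had 0.476 and 0.343 CPM in DMSO replicates 1 and 2 and 3.55 CPM in DMSO replicate 3, while the doxycycline libraries lay between 2.56 and 3.07 CPM. RN7SL169P went the other way in the same library, with 1.79 CPM in DMSO replicate 3 against 5.95 and 4.68 CPM in the other DMSO libraries. RN7SL402P had a fitted log2 fold change of 0.97, and its groups overlapped through that library alone.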
